A study of Mus musculus with 6 samples.

Results

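Basement membranes are thin sheets of matrix that surround muscle fibres, Schwann cells, fat cells and the walls of blood vessels. A set of 10 genes of these sheets was followed here: the type IV collagen chains Col4a1 and Col4a2, the type XV and type XVIII collagens Col15a1 and Col18a1, the laminin chains Lama2, Lama4, Lamb1 and Lamc1, nidogen (Nid1) and perlecan (Hspg2). They were taken by symbol, and all 10 were found among the 24411 genes of the count table. All 10 also passed the filter on low counts, which kept 13466 genes.

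Total RNA was taken from Achilles tendon at an age of 18 weeks, and all mice were C57BL/6. There were 3 wild-type (WT) libraries and 3 of the genotype Scx-Cre/Piezo1 GOF, here called Piezo1 GOF. This genotype joins a Cre recombinase driven by sequence of Scx, a transcription factor gene of the tendon lineage, with a gain-of-function Piezo1 allele; Piezo1 is a cation channel opened by membrane tension. The label of the WT group names no Cre. Separate animals are not stated for the samples, so p-values reflect the spread among these libraries alone, and that spread may be technical. The comparison asks how transcript levels in tendon differed between the genotypes.

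A basement membrane is built on a laminin sheet and a type IV collagen network, which nidogen and perlecan link. A laminin is a trimer of an alpha, a beta and a gamma chain, and the alpha chain sets which cell receptors it binds. Lama2 encodes the alpha chain typical of muscle fibres and Schwann cells, and Lama4 that typical of vessels. In tendon, such sheets belong mainly to vessels, nerves, fat and the muscle fibres at the junction with muscle, while tenocytes lie in a matrix of fibrillar collagen.

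Total expected counts lay between 8131527 and 17180856 per library, and 15595 to 16594 genes had at least 1 count. Tenocyte markers were present in every library, with the sum of 10 genes, led by Dcn and Col1a2, at 4999 to 14668 CPM (counts scaled to library size) in WT and 28533 to 49988 CPM in Piezo1 GOF. WT replicate 1 stood apart by its nerve and vessel wall transcripts. Its 12 Schwann cell markers summed to 3982 CPM, against 202 to 279 CPM in the other WT libraries and 525 to 653 CPM in Piezo1 GOF. Among them, Pmp22 and the myelin gene Mbp had the highest means, and Mbp was at 1001 CPM there and at 7.13 to 30.6 CPM in the other 5 libraries. Its 12 pericyte and smooth muscle markers summed to 5042 CPM, led by Acta2 at 1946 CPM, against 959 to 1822 CPM elsewhere. WT replicate 2 had the highest sum of the 18 skeletal muscle markers, led by Ttn and Acta1, and the lowest sum of tenocyte markers. For replicates 1 to 3 in order, the muscle sum was 76609, 173065.5 and 149243 CPM in WT, against 75751, 23978 and 63032 CPM in Piezo1 GOF. The 14 endothelial markers, led by Vwf and Cdh5, summed to 1278 to 1901 CPM in WT and 761 to 1124 CPM in Piezo1 GOF. Of the tested markers, 17 of 18 for muscle and 12 of 12 for Schwann cells had negative fold changes. So had 10 of 11 for pericytes and smooth muscle and 11 of 14 for endothelium, against 50.3% of all genes. By edgeR, 0 of these passed over all genes. The Schwann cell sum was higher in WT through WT replicate 1 alone, since WT replicates 2 and 3 lay below all mutant libraries. Acta2 was likewise at 120 and 128 CPM in WT replicates 2 and 3, against 142 to 163 CPM in Piezo1 GOF. The sum of its list was not, at 1822 and 1584 CPM in WT replicates 2 and 3, against 959 to 1457 CPM in Piezo1 GOF. Rgs5, also of that list, was at 551, 764 and 651 CPM in WT and 333, 246 and 408 CPM in Piezo1 GOF, without overlap. No marker of these 4 lists was at 0 in all 6 libraries. In bulk tissue, fewer cells of a type and less RNA per cell cannot be told apart.

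**Figure D1:**
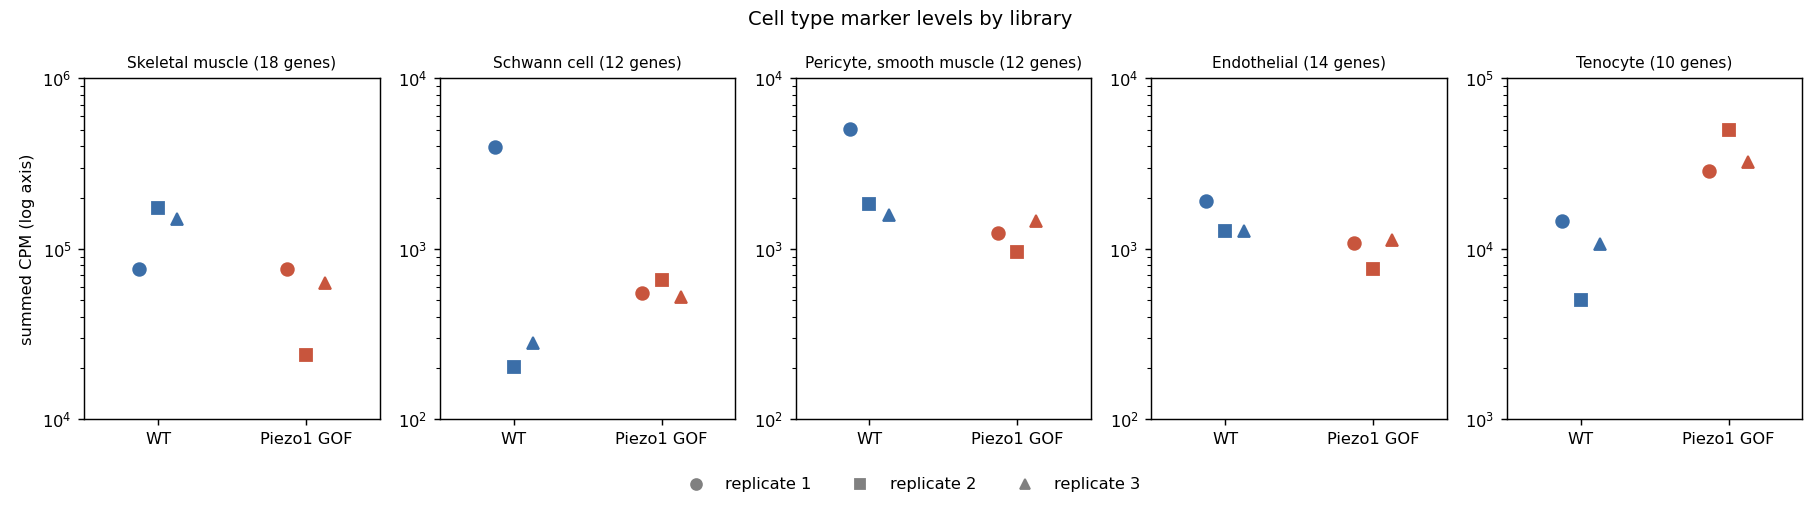
Summed CPM (log axis) of 5 lists of cell type markers in the 3 WT and 3 Piezo1 GOF libraries, with the symbol giving the replicate. WT replicate 1 is highest for Schwann cell and for pericyte and smooth muscle markers, and all 3 mutant libraries lie above all WT libraries for tenocyte markers.

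Promoter sequences are given for 4 of the genes, since Col4a1 and Col4a2 share a start region and had near-equal fold changes, whereas Lama2 and Col15a1 had the lowest and the highest fold change of the 10. Sequences are from RefSeq on GRCm38.p6, 5′ to 3′ on the strand of each gene, from 250 bases before to 50 after the start site. Windows were found for 8 of the 10 genes (Col18a1 has windows at 2 starts), and Lama4 and Lamc1 had none. Capitals mark the GC box GGGCGG and the CCAAT box CCAAT on either strand; TATAAA was also searched. These 3 motifs do not overlap each other in the windows shown. The Col4a1 window lies on the minus strand at chr8:11312777-11313076 and the Col4a2 window on the plus strand at chr8:11312555-11312854. The Lama2 window lies on the minus strand at chr10:27616893-27617192, and that of Col15a1 on the plus strand at chr4:47207762-47208061. The Lama2 start site used, 27616942, lies inside the gene span given below, whose 5′ end is 27619758.
Col4a1: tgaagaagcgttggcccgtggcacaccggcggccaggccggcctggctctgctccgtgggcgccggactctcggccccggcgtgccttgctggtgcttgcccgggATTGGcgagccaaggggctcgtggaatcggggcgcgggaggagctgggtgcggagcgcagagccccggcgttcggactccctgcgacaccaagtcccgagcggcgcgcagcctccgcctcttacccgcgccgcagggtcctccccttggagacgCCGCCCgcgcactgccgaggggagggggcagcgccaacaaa
Col4a2: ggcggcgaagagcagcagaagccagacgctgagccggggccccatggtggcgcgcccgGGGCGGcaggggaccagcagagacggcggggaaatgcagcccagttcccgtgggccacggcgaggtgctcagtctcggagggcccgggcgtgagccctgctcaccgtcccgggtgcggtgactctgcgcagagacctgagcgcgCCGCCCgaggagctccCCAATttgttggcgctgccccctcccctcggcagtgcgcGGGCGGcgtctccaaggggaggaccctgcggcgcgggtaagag
Lama2: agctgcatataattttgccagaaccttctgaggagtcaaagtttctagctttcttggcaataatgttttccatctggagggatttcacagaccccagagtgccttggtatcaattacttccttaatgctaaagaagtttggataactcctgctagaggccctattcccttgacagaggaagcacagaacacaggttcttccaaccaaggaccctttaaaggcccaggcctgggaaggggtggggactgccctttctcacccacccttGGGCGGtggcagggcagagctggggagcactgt
Col15a1: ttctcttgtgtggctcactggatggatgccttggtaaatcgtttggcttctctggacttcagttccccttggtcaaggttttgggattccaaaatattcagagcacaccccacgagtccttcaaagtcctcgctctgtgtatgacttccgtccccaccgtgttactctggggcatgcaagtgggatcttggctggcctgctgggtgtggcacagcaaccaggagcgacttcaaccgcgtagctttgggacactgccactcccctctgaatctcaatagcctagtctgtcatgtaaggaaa

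The start sites of Col4a1 (11312826) and Col4a2 (11312805) lie 21 bp apart on opposite strands, and their windows share 78 bp. A GC box lies in the shared stretch. In all, the Col4a2 window held 3 GC boxes and 1 CCAAT box and the Col4a1 window 1 of each. The Lama2 window held 1 GC box and no CCAAT box, and the Col15a1 window neither. GC content was 74.0% for Col4a1 and 73.7% for Col4a2, against 50.3% for Lama2, 52.3% for Col15a1 and a median of 52.7% over 32817 mouse promoter windows of the same length. The Hspg2 window held 5 GC boxes. Of all 32817 windows, 35.6% held at least 1 GC box, 10.7% at least 3, 37.4% at least 1 CCAAT box and 13.6% TATAAA, which was in none of the 9 windows of the 10 genes. These matches describe the letters only.

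As a group, the basement membrane genes showed no change past the threshold, and most had a lower mean in Piezo1 GOF. With p-values of edgeR's quasi-likelihood test adjusted over all 13466 genes by the Benjamini-Hochberg method, 0 of the 10 were higher and 0 lower, against 0.0149% of all genes called, all of them higher. At an unadjusted p under 0.05, 0 were higher and 1 (Lama2) was lower, where all genes gave 10.2% higher and 9.59% lower, 19.8% in all. The libraries of the genotypes did not overlap for 1 gene that was higher (Col15a1) and 2 that were lower (Lama2 and Lamc1), and over all genes 13.6% and 12.1% did not overlap in these directions. A count of 3 of 10 is thus near the background of 25.6%. Of the 10 fold changes 8 were negative, against 50.3% of all genes, and the median log2 fold change was -0.38, against -0.0045 over all genes. Without WT replicate 1 the median was -0.079 and 6 were negative, and without WT replicate 2 it was -0.55. Leaving out replicate 2 of Piezo1 GOF gave -0.15, and leaving out its replicate 3 gave -0.59. DESeq2 called 1 of the 10, Lama2, which was lower, where it called 2.74% of 13765 genes lower and 3.73% higher. limma voom with sample quality weights called 0 of the 10, against 0.72% of genes higher and 0.141% lower, and gave a median of -0.24 for the 10. The fit by edgeR without WT replicate 1 called 0, against 1.22% of genes higher and 0.319% lower.

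**Figure D2:**
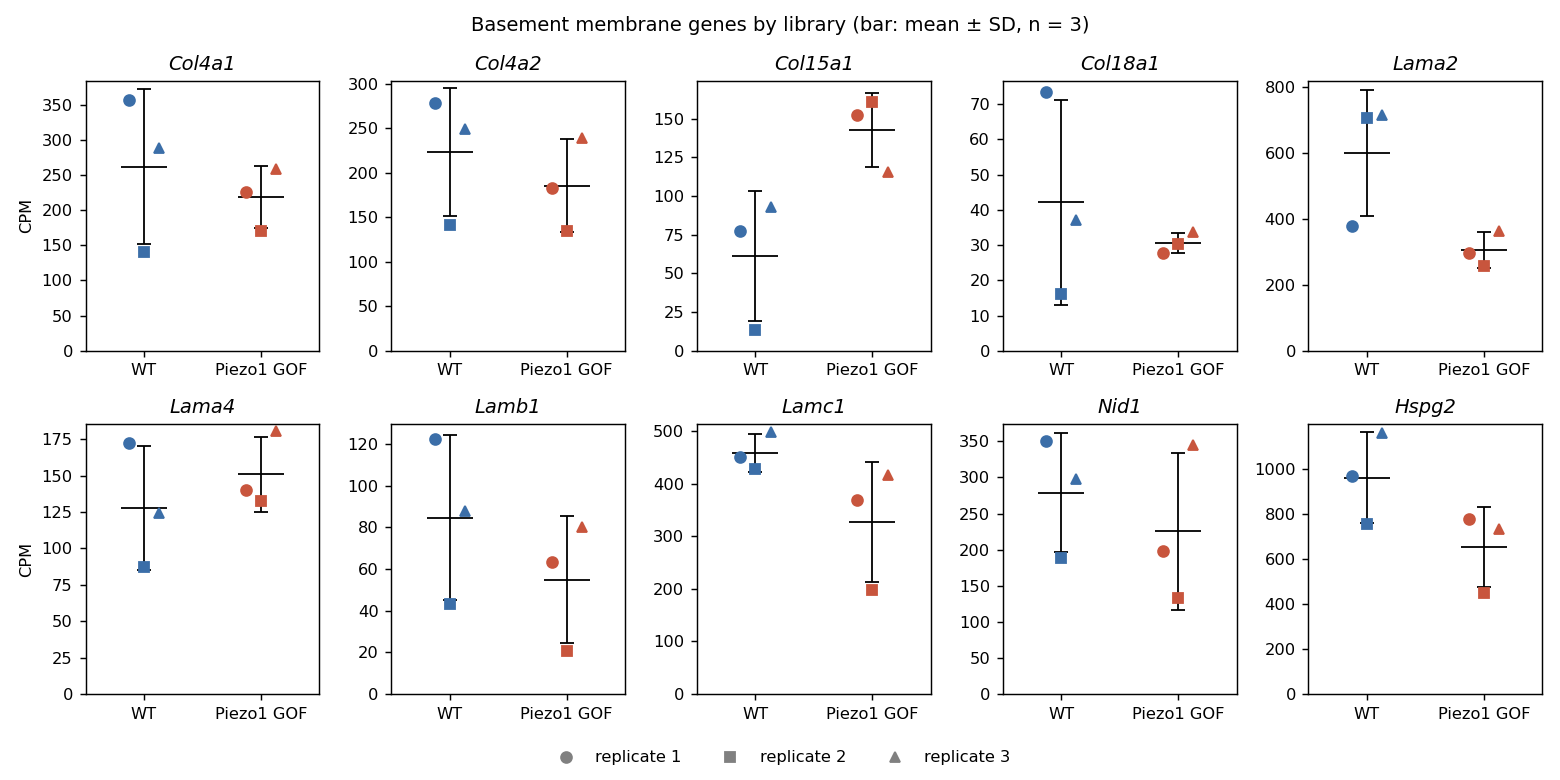
CPM of the 10 genes in each library, with symbols for the replicate and bars for mean ± SD (n = 3 per genotype), each axis from 0. The mutant libraries lie above WT for Col15a1 and below WT for Lama2 and Lamc1, and the groups overlap for the other 7.

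The type IV collagen chains, which form the network of every basement membrane, did not pass the test in either direction. Col4a1 (chromosome 8, minus strand, 11198423 to 11312826 of mm10) was at 356, 141 and 289 CPM in WT replicates 1 to 3 and at 225, 171 and 258 CPM in Piezo1 GOF. The WT libraries spanned the whole range of the mutant ones. The log2 fold change of Col4a1 was -0.26 ± 0.36 (SE, n = 3 per genotype; 95% interval -1.07 to 0.54; edgeR adjusted p = 0.706). Leaving out WT replicate 1 gave 0.03 ± 0.36. Col4a2 (plus strand, 11312805 to 11449287) was at 279, 142 and 249 CPM in WT and at 183, 135 and 239 CPM in Piezo1 GOF. Its log2 fold change was also -0.26 ± 0.33 (95% interval -1.004 to 0.48; edgeR adjusted p = 0.676). Without single libraries, Col4a1 was lowest at -0.56 and Col4a2 at -0.51, both without WT replicate 2. Col4a2 was -0.061 without WT replicate 1 and -0.058 without Piezo1 GOF replicate 2, where Col4a1 was -0.094. Without Piezo1 GOF replicate 3, Col4a1 was -0.40 and Col4a2 -0.48. The 2 genes were ordered alike over the libraries, with WT replicate 1 highest, except that their 2 lowest libraries, WT replicate 2 and Piezo1 GOF replicate 2, changed places. Their intervals hold values from a level lower by 1.07 to one higher by 0.54 on the log2 scale.

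Per kilobase of exon, Col4a2 and Col4a1 were near parity in every library. The ratio of Col4a2 to Col4a1 was 0.882, 1.13 and 0.973 in the WT libraries and 0.917, 0.890 and 1.05 in the mutant ones, replicates 1 to 3 in order. All 6 libraries lay close to 1, while the level of Col4a1 itself ranged from 141 to 356 CPM. The mean log2 ratio was -0.01 ± 0.18 (SD, n = 3) in WT and -0.08 ± 0.12 in Piezo1 GOF, a difference of -0.06 (two-sided exact permutation p = 0.7; Benjamini-Hochberg over 5 ratios, 0.875), and 0.03 without WT replicate 2. The exons of the 2 genes overlap at their 5′ ends on opposite strands, and whether strand was used in counting is not given, so reads from that overlap cannot be assigned.

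Lama2, the alpha chain of muscle and nerve laminin, was the gene of the set with the lowest p. It was at 379, 704 and 715 CPM in WT replicates 1 to 3 and at 297, 256 and 364 CPM in Piezo1 GOF. All 3 mutant libraries lay below all 3 WT libraries, with WT replicate 1 close above them. The mutant level was 1.96-fold lower (log2 fold change -0.97 ± 0.33, SE, n = 3 per genotype; 95% interval -1.72 to -0.23), which did not pass by edgeR (adjusted p = 0.182) and passed by DESeq2 (-0.99 ± 0.31, adjusted p = 0.0272). Over the alternatives the adjusted p of Lama2 ran from 0.0272 with DESeq2 to 0.508 with the skeletal muscle score as a covariate. WT replicates 2 and 3 had the highest muscle sums and the highest Lama2. WT replicate 1 and Piezo1 GOF replicate 1 had near-equal muscle sums (76609 and 75751 CPM), with Lama2 at 379 and 297 CPM. The muscle sum did not overlap between the genotypes, by this narrow margin. Ttn, which leads the sum, did overlap, at 28110 CPM in WT replicate 1 and 30893 CPM in Piezo1 GOF replicate 1. The sum was lower with the mutant genotype, and muscle content and genotype cannot be told apart here. With the muscle score as a covariate the log2 fold change of Lama2 was -0.70 ± 0.33 by edgeR, and without WT replicate 1 it was -1.21 ± 0.31 (edgeR adjusted p = 0.0806). Across the WT libraries, Schwann cell markers were highest in WT replicate 1, where Lama2 was lowest. The parts of muscle and nerve content in the Lama2 difference were not tested. Lama2 spans 26980036 to 27619758 on the minus strand of chromosome 10.

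Lama4, the alpha chain of vessel laminin (chromosome 10, plus strand, 38965515 to 39110188), overlapped between the genotypes. It was at 172, 87.1 and 124 CPM in WT and at 139.8, 133 and 180.4 CPM in Piezo1 GOF. WT replicate 2 was lowest and Piezo1 GOF replicate 3 highest, and the log2 fold change was 0.24 ± 0.29 (95% interval -0.41 to 0.89; edgeR adjusted p = 0.66). Leaving out WT replicate 1 gave 0.52 ± 0.28, and leaving out WT replicate 2 gave 0.03 ± 0.27. It was 0.094 without Piezo1 GOF replicate 3 and 0.16 with the muscle covariate.

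The ratio of the 2 alpha chains had non-overlapping values in the genotypes. Per kilobase of exon the ratio of Lama2 to Lama4 was 1.63, 5.97 and 4.26 in the WT libraries, against 1.57, 1.42 and 1.49 in the mutant ones. The 3 mutant libraries were nearly equal, and WT replicate 1 lay just above them, far from the other WT libraries. The mean log2 ratio was 1.79 ± 0.97 (SD, n = 3) in WT and 0.58 ± 0.070 in Piezo1 GOF. The difference of -1.21 gave a two-sided exact permutation p of 0.1, the smallest that 3 against 3 allows, and 0.25 after Benjamini-Hochberg adjustment over 5 ratios. Leaving out WT replicate 1 gave -1.76, and leaving out WT replicate 2 gave -0.82. The muscle sum of WT replicate 1, given above, was also close to that of Piezo1 GOF replicate 1, and the part of muscle content in this ratio was not tested.

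**Figure D3:**
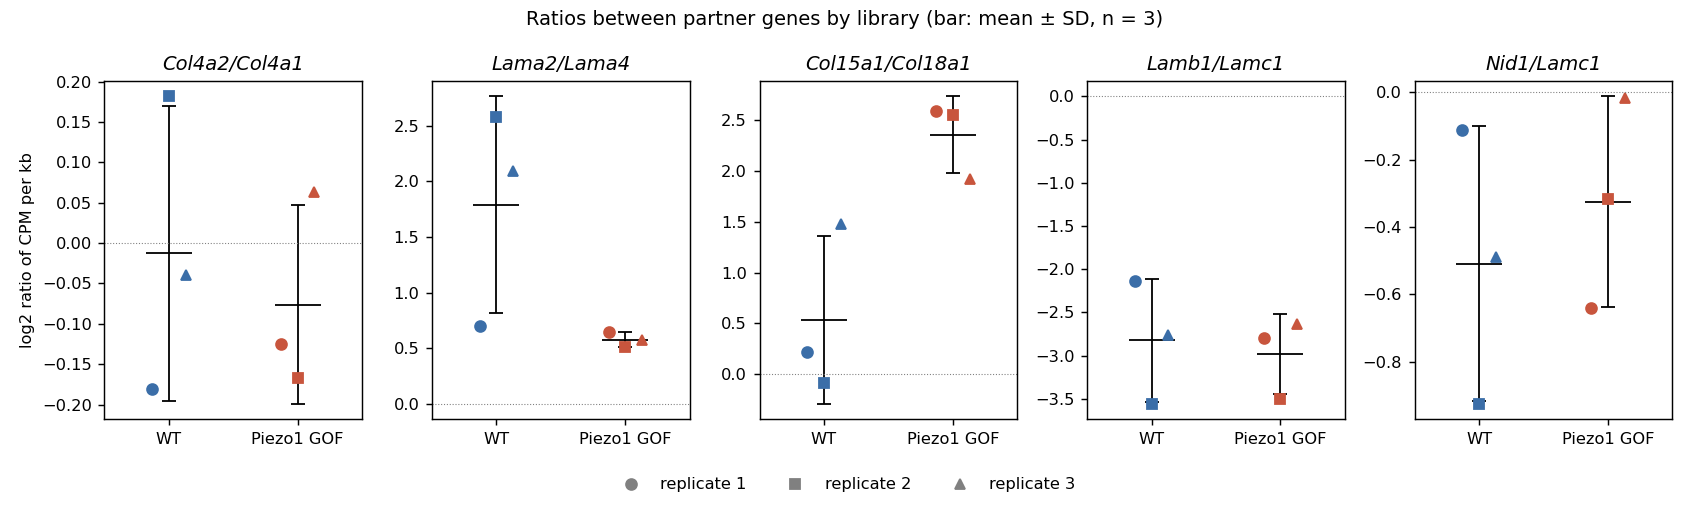
Log2 ratio of CPM per kilobase of exon for 5 pairs of genes in each library, with symbols for the replicate and bars for mean ± SD (n = 3 per genotype). The groups do not overlap for Lama2/Lama4 and Col15a1/Col18a1, and they overlap for the other 3.

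The beta and gamma chains join the alpha chains in the trimer, and Lamc1 encodes the gamma chain of most laminins. Lamc1 (chromosome 1, minus strand, 153218922 to 153332786) was at 451, 427 and 498 CPM in WT and at 368, 197 and 416 CPM in Piezo1 GOF. The groups did not overlap, by a narrow margin, and Piezo1 GOF replicate 2 was far below the rest. Its log2 fold change was -0.49 ± 0.32 (95% interval -1.22 to 0.24; edgeR adjusted p = 0.421), against -0.21 without Piezo1 GOF replicate 2 and -0.26 with the muscle covariate. Lamb1 (chromosome 12, plus strand, 31265234 to 31329644) was at 122.7, 43.4 and 88.1 CPM in WT and at 63.6, 20.9 and 80.3 CPM in Piezo1 GOF. The lowest library of each genotype was replicate 2, and the log2 fold change was -0.62 ± 0.50 (95% interval -1.76 to 0.51; edgeR adjusted p = 0.508). For Lamb1, leaving out WT replicate 1 gave -0.24 and leaving out WT replicate 2 gave -0.94. The second mutant library left out gave -0.21, and the third gave -0.99. The ratio of Lamb1 to Lamc1 per kilobase lay between 0.0848 and 0.227 in WT and between 0.0882 and 0.161 in Piezo1 GOF (exact permutation p = 0.9).

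Nid1, which bridges laminin and type IV collagen (chromosome 13, plus strand, 13437551 to 13512269), was at 351, 189 and 298 CPM in WT and at 198, 133 and 345 CPM in Piezo1 GOF. The ranges nearly coincided, and the log2 fold change was -0.31 ± 0.39 (95% interval -1.18 to 0.57; edgeR adjusted p = 0.682). It was lowest, at -0.74, without the third mutant library and highest, at -0.020, without the second. The values without the first and the second WT library were -0.098 and -0.52. Hspg2, the heparan sulfate proteoglycan perlecan (chromosome 4, plus strand, 137468769 to 137570630), was at 969.5, 754 and 1157 CPM in WT and at 778, 448 and 732 CPM in Piezo1 GOF. Only WT replicate 2 and Piezo1 GOF replicate 1 overlapped, and the log2 fold change was -0.56 ± 0.34 (95% interval -1.33 to 0.22; edgeR adjusted p = 0.384), against -0.33 without Piezo1 GOF replicate 2. Perlecan was the gene with the highest CPM of the 10 in each library.

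Col15a1 and Col18a1 encode related proteoglycan collagens, and the C-terminal part of type XVIII is released as endostatin. Col15a1 (chromosome 4, plus strand, 47208161 to 47313167) was at 77.4, 13.5 and 93.0 CPM in WT replicates 1 to 3 and at 152, 161 and 116 CPM in Piezo1 GOF. Each mutant library exceeded each WT library, and WT replicate 2 lay far below the rest. The mutant level was 2.33-fold higher (log2 fold change 1.22 ± 0.56, SE; 95% interval -0.055 to 2.50), which did not pass by edgeR (adjusted p = 0.268) or DESeq2 (adjusted p = 0.1396). Without WT replicate 2 it was 0.74 ± 0.25 (edgeR adjusted p = 0.315), and leaving out WT replicate 3 gave 1.66 ± 0.64. Tenocyte markers had the same lowest library, WT replicate 2, and were likewise higher in all 3 mutant libraries. The same held for macrophage markers, at 172 to 269 CPM in WT and 653 to 808 CPM in Piezo1 GOF. Fibroblast markers were also lowest in WT replicate 2, and these and the adipocyte markers overlapped between the genotypes. The part of these cell types in the Col15a1 difference was not tested. Col18a1 (chromosome 10, minus strand, 77052178 to 77166548) was at 73.6, 15.97 and 37.0 CPM in WT and at 27.8, 30.2 and 33.7 CPM in Piezo1 GOF. The mutant libraries lay close together inside the WT range, and the log2 fold change was -0.46 ± 0.45 (95% interval -1.49 to 0.57; edgeR adjusted p = 0.596). It was 0.22 ± 0.35 without WT replicate 1, which held the highest value, and -0.85 ± 0.30 without WT replicate 2. It was -0.24 by limma voom, -0.21 with the replicate block and -0.73 with the muscle covariate.

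The ratio of Col15a1 to Col18a1 per kilobase was 1.16, 0.938 and 2.78 in WT and 6.05, 5.88 and 3.80 in Piezo1 GOF. The lowest mutant library exceeded the highest WT library, as the plot of ratios by library shows. The mean log2 ratio was 0.53 ± 0.83 (SD, n = 3) in WT and 2.36 ± 0.38 in Piezo1 GOF, a difference of 1.83 (two-sided exact permutation p = 0.1, the smallest possible; 0.25 after adjustment over 5 ratios). It ranged from 1.51 without WT replicate 2 to 2.30 without WT replicate 3.

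**Figure D4:**
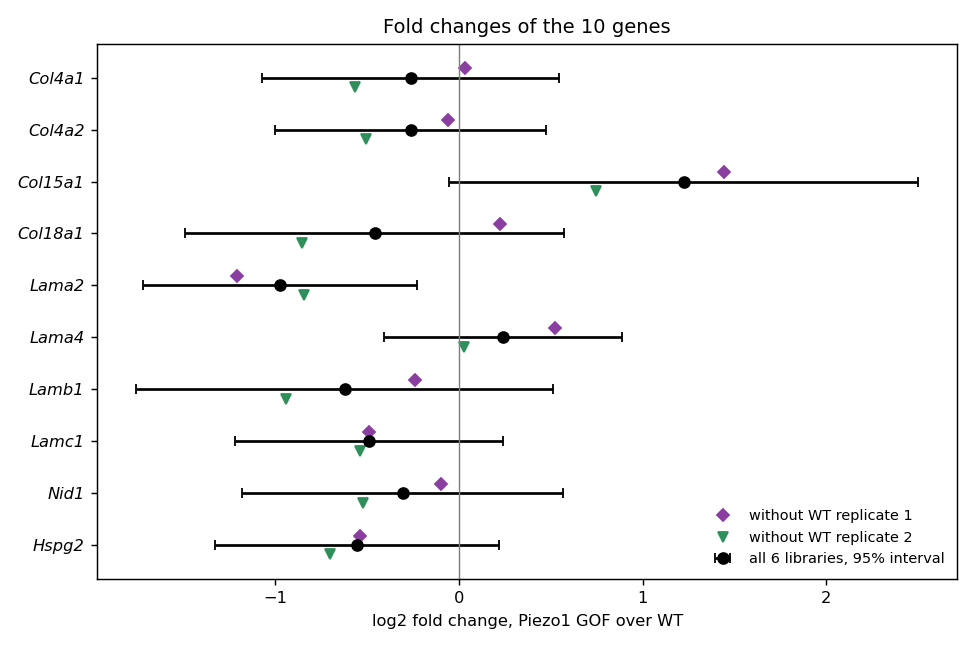
Log2 fold change of each gene, Piezo1 GOF over WT, with its 95% interval from edgeR (black), and the values without WT replicate 1 (diamonds) and without WT replicate 2 (triangles). The interval excludes 0 for Lama2 alone, before adjustment over all genes. Col4a1 and Col18a1 lie above 0 without WT replicate 1 and below 0 without WT replicate 2.

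The genes shared a pattern over single libraries that was not that of the genotypes. WT replicate 2 was the lowest WT library for 9 of the 10 genes, with Lama2 as the exception, and Piezo1 GOF replicate 2 was the lowest mutant library for 8, with Col15a1 and Col18a1 as exceptions. As a description over 6 libraries that share their depth and tissue makeup, Pearson's r of log2 CPM with the mean of the other 9 genes was 0.99 for Col4a2, 0.94 for Lamb1, 0.93 for Col4a1 and 0.92 for Nid1. It was 0.089 for Col15a1 and 0.067 for Lama2. The 5 genes outside the set with the most similar pattern were Tanc2, Sulf2, Fscn1, Miat and Ube2q1, with r of 0.96 to 0.98 to the mean standardised log2 CPM of the 10 over the same 6 libraries.

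On the scale of CPM per kilobase of exon, which allows genes to be compared, Hspg2 was highest of the 10 in WT (67.1 ± 14.1, SD, n = 3), followed by Lamc1 (55.5 ± 4.36), Nid1 (40.2 ± 11.9), Lama2 (36.7 ± 11.7), Col4a1 (35.1 ± 14.8) and Col4a2 (33.7 ± 10.9). Lama4 (10.6 ± 3.54), Col15a1 (9.66 ± 6.63), Lamb1 (8.54 ± 4.01) and Col18a1 (6.01 ± 4.15) were lower. Of the 9 neighbouring pairs in this order, the gap was larger than the larger SD of the pair for 2, Lamc1 over Nid1 and Col4a2 over Lama4. In Piezo1 GOF, Col15a1 (22.5 ± 3.77) stood above Lama2 (18.7 ± 3.33), and 3 of 9 neighbouring gaps were larger than the SD, those from Col15a1 down to Lama2, Lama4 and Lamb1. Lamb2, another laminin beta chain and not of the 10, was at 99.4 ± 10.1 in WT and 90.5 ± 3.39 in Piezo1 GOF, far above Lamb1.

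**Figure D5:**
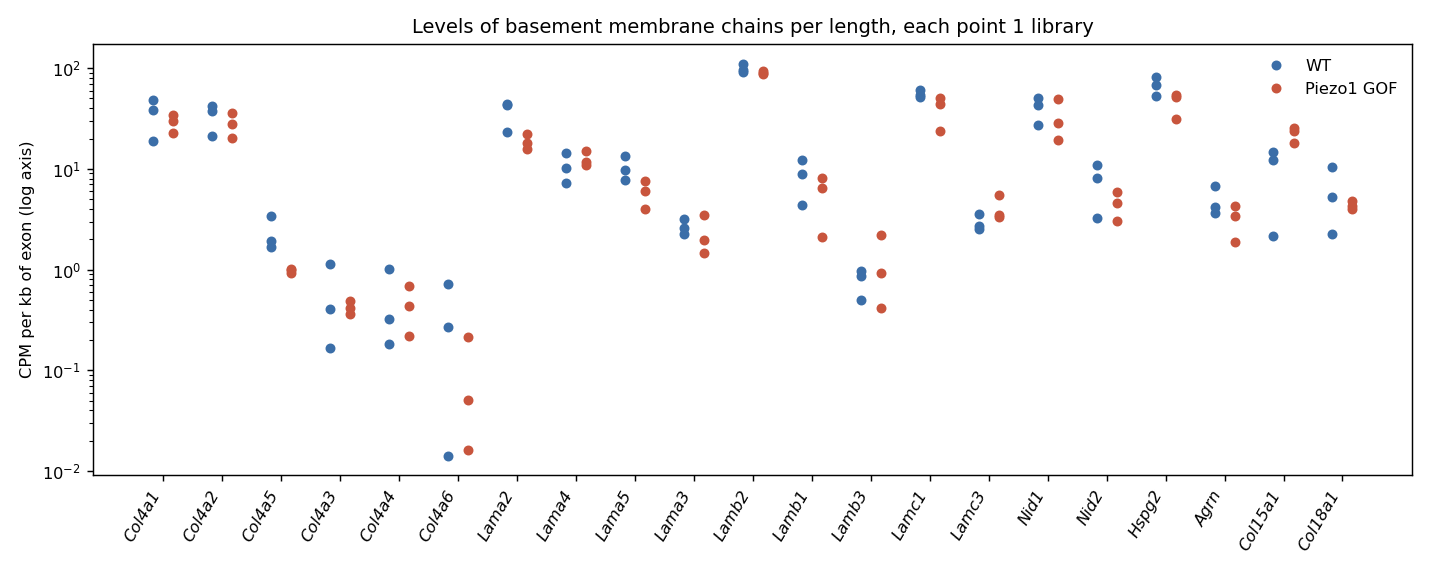
CPM per kilobase of exon (log axis) for the 10 genes and 11 related chains, each point 1 library. Lamb2, Hspg2 and Lamc1 are highest, the chains Col4a3, Col4a4 and Col4a6 are lowest, and the mutant libraries lie above WT for Col15a1.

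Other chains of basement membranes passed by edgeR in 0 of 12 tested cases in either direction, with a median log2 fold change of -0.53 and 10 negative values. By limma voom that median was -0.15, and leaving out WT replicate 1 or 2 gave -0.18 or -0.82. Of the 12, 3 had an unadjusted p under 0.05 by edgeR, all lower. The shares over all genes were 9.59% lower and 10.2% higher at that p, and 50.3% with negative values. Col4a5, a type IV chain, was at 23.1, 11.2 and 12.8 CPM in WT and 6.24, 6.72 and 6.75 CPM in Piezo1 GOF, below all WT libraries (-1.25 ± 0.33; edgeR adjusted p = 0.1303; DESeq2 adjusted p = 0.0264). Lama5, an alpha chain of vessels, had a log2 fold change of -0.81 ± 0.29. Nid2, the second nidogen, had a log2 fold change of -0.73 ± 0.42 and Agrn, which encodes agrin, one of -0.63 ± 0.34. The 2 positive values of the list were those of Lamc3 (0.49 ± 0.27) and Lamb3 (0.57 ± 0.57). Lama1 had too few counts to be tested.

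Receptors for laminin or collagen and the dystrophin complex, which anchors muscle fibres to laminin, formed a list of 19 genes. Its median log2 fold change was -0.72, with 0 of 19 called by edgeR and 15 negative. Of the 19, 8 had an unadjusted p under 0.05 by edgeR and were lower, and 2 were higher. Over all genes 9.59% were lower and 10.2% higher at that p, and 50.3% had negative values. Itga7, the laminin-binding integrin chain of muscle, was at 204, 367 and 266 CPM in WT and 145, 67.7 and 141 CPM in Piezo1 GOF, with no overlap (-1.24 ± 0.35; edgeR adjusted p = 0.148; DESeq2 adjusted p = 0.0133). Bcam, a laminin receptor, had a log2 fold change of -1.16 ± 0.32 (edgeR adjusted p = 0.141; DESeq2 adjusted p = 0.0155). In the opposite direction, Itga2, a collagen-binding integrin chain, was at 8.91, 4.34 and 7.81 CPM in WT and 32.9, 27.1 and 19.9 CPM in Piezo1 GOF. It was 3.81-fold higher (1.93 ± 0.33) and missed the threshold by edgeR (adjusted p = 0.0572), but passed without WT replicate 1 (0.0421), by DESeq2 and by limma voom. Sgce had a log2 fold change of 1.14 ± 0.40 and Itga1 one of 0.11 ± 0.24. The 11 enzymes that build the laminin-binding sugar of dystroglycan gave 0 calls by edgeR and a median log2 fold change of -0.18. Among these, the glycosyltransferase gene Large was at 49.3, 57.3 and 58.4 CPM in WT and 24.8, 21.7 and 34.8 CPM in Piezo1 GOF (-1.02 ± 0.23), again without overlap. It did not pass by edgeR (adjusted p = 0.106) and passed by DESeq2 (0.00974). The skeletal muscle sum was lower in Piezo1 GOF as well, and its part in these values was not tested. With the muscle score as a covariate in edgeR, the median log2 fold change was -0.53 for the receptors and -0.19 for the dystroglycan enzymes. The latter median was -0.083 without WT replicate 3 and -0.069 with no scaling factor, and that of the receptors was -0.46 by limma voom.

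Among 13 tested matrix proteins associated with basement membranes, 0 passed over all genes by edgeR, with a median log2 fold change of -0.34. Of these, 5 had positive and 8 negative values, where 50.3% of all genes were negative. Smoc1, a calcium-binding protein of basement membranes, was at 29.4, 11.4 and 14.4 CPM in WT and 73.7, 71.8 and 68.9 CPM in Piezo1 GOF. The mutant libraries were close together and far above WT (1.96 ± 0.34; edgeR adjusted p = 0.0572), and Smoc1 passed without WT replicate 1 (0.0221), by DESeq2 and by limma voom. Sparc, which binds collagens and is also a gene of matrix-forming cells, was at 2952, 340.1 and 1832 CPM in WT and 5128, 8858 and 6653 CPM in Piezo1 GOF (2.01 ± 0.73; edgeR adjusted p = 0.196; DESeq2 adjusted p = 0.00845). Matn2 had a log2 fold change of 1.41 ± 0.54 by edgeR with all libraries and of 2.43 ± 0.29 without WT replicate 1, where it passed (adjusted p = 0.0221). Frem2 was at 57.8, 166 and 111 CPM in WT and 28.9, 16.05 and 36.5 CPM in Piezo1 GOF, lower without overlap (-2.04 ± 0.42; edgeR adjusted p = 0.0969), and passed without WT replicate 1 (0.0373) and by DESeq2. Npnt (-0.83 ± 0.25) and Egflam (-0.94 ± 0.35) had negative values too. By limma voom the median of the list was -0.10, and leaving out WT replicate 1 or 2 gave 0.29 or -0.56.

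Genes that fold, modify and crosslink type IV collagen gave 0 calls among 11 by edgeR, with a median log2 fold change of 0.22, which was 0.11 without WT replicate 2. The prolyl hydroxylase subunit P4ha1 was at 109.7, 55.6 and 93.4 CPM in WT and 251, 522 and 189 CPM in Piezo1 GOF, higher without overlap (1.90 ± 0.42). It did not pass by edgeR (adjusted p = 0.104), but passed by edgeR with no filter on low counts (0.0459) and by DESeq2 (0.000261). The collagen chaperone Serpinh1 (0.80 ± 0.39) and the hydroxylase Plod3 (0.36 ± 0.21) had positive values, while P4ha2 (-0.09 ± 0.23), Colgalt1 (-0.08 ± 0.19) and P3h2 (-0.0011 ± 0.30) lay near 0. These enzymes also act on fibrillar collagens. Genes of turnover gave 0 calls among 8 by edgeR, with a median log2 fold change of 0.43, which became 0.64 when WT replicate 1 was left out and 0.25 when WT replicate 2 was. They were led by the protease Mmp3 (3.63 ± 0.99; edgeR adjusted p = 0.140; DESeq2 adjusted p = 0.0498), at 5.91, 0.575 and 3.39 CPM in WT and 10.1, 14.7 and 92.9 CPM in Piezo1 GOF. The heparanase Hpse (2.12 ± 0.78) was at most 3.51 CPM in any library, the cathepsin Ctsl had a log2 fold change of 0.39 ± 0.21 and the protease Tll1 one of -0.68 ± 0.62.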

How the data were processed

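RNA of 6 tendon libraries was measured with the RamDA-seq kit, whose priming is not limited to poly(A) tails, per the labels' protocols. The deposited table holds expected counts per gene, which the authors did not scale for depth or length. The tools named in the submitters' processing notes are bcl2fastq, STAR, RSEM and edgeR, with build mm10. Versions, annotation and strand setting: not given in the sources used here. Expected counts were rounded, genes were filtered with filterByExpr (minimum count 10) and libraries scaled by TMM. Genotype was the only term of the edgeR quasi-likelihood fit over 13466 genes, with calls at an adjusted p of 0.05. The SE is the log2 fold change divided by the square root of F. CPM use TMM-scaled library sizes, and CPM per kilobase use the union of exons of GENCODE M21, whose mm10 coordinates are printed, so isoforms that are not expressed make the length too long. Ratios were compared by two-sided exact permutation tests. Precision is limited by 3 libraries a group and a common dispersion of 0.113. Same-genotype libraries differed by 38.7 to 133 in chi-square per degree of freedom, so none was a copy. The chain was tested on simulated counts.

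The members and gene lists were chosen with earlier results of these data known. Named were the 10 members, genes of each list with the smallest p (up to 3 per direction) or past 0.05, the 2 most abundant markers of each cell type list, and the 5 other genes (mean CPM of at least 5, no Gm or Rik genes) most like the members. Lamb2, Nid2, Agrn and the genes named for WT replicate 1 in the closing section were chosen after their values were seen. Some genes that this rule selects are not reported here. Hmcn2 had no row of that name, and Large, Ispd and Tmem5 were matched by synonym. The other marker lists are given by summed CPM in WT and Piezo1 GOF. They were at 342 to 2479 and 2149 to 2879 (fibroblast) and 321 to 1068 and 798 to 2379 (adipocyte). Macrophage markers were at 172 to 269 and 653 to 808, and erythroid markers at 11.2 to 36.0 and 21.0 to 71.8. Positive fold changes were found for 7 of 8 fibroblast, 8 of 8 adipocyte, 10 of 10 macrophage and 4 of 4 tested erythroid markers. Tenocyte markers had 10 of 10, and edgeR called 0 in these 5 lists. Alternatives were other scaling, filters and tests, the replicate block, single libraries left out, muscle genes removed and a muscle covariate. Versions were edgeR 4.0.16, DESeq2 1.42.0 and limma 3.58.1 under R 4.3.3, beside Python 3.11.15.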

Additional observations from a re-analysis of the deposited data

How the results depend on the processing

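Of 150 pairs of a gene and an alternative, 147 kept the direction and the side of the threshold of the fold change. The exceptions were Lama2, called by DESeq2, and 2 reversals without WT replicate 1. With 0 of the 10 called by edgeR on all 6 libraries, this count says little about the size of a fold change. For example, Nid1 kept its direction while moving from -0.31 to -0.020 without Piezo1 GOF replicate 2. Without single libraries the log2 fold change ranged from -0.56 to 0.0345 for Col4a1 and from -0.85 to 0.22 for Col18a1. The difference in log2 ratio ranged from -0.15 to 0.0339 for Col4a2/Col4a1, from -0.53 to 0.18 for Lamb1/Lamc1 (0.10 without Piezo1 GOF replicate 2) and from -0.0245 to 0.38 for Nid1/Lamc1. The number of the 10 genes called was 0 under every alternative except DESeq2, which called 1 lower. Over all genes, 2 were called higher and 0 lower with all 6 libraries. The counts were 0 and 0 with no scaling factor, with the replicate block and with the muscle covariate, 141 and 24 with no filter on low counts, 97 and 19 with limma voom, and 514 and 377 with DESeq2. They ranged from 0 to 164 and from 0 to 43 without single libraries, the highest without WT replicate 1. Of the other basement membrane genes, 3 were called higher and 1 lower with no filter, 2 and 0 with limma voom, 5 and 9 with DESeq2, and 0 to 3 and 0 to 1 without single libraries. Their lists held 12, 13, 19, 11, 11 and 8 genes tested in the main fit. Over all genes, 3.73% were higher and 2.74% lower with DESeq2, and 0.72% and 0.141% with limma voom. Without WT replicate 1 the shares were 1.22% and 0.319%. With no filter, the 141 and 24 calls were among 18373 genes. The cause of these changes in the number of calls was not tested. With no scaling factor the median of all genes was 0.10 on the log2 scale, and that of the 10 genes was -0.31. Over all genes, deviations of same-numbered libraries from their group means had correlations of -0.21, -0.14 and -0.053, all below 0, and no label ties the numbers, so the libraries were taken to share only a number. The replicate block changed no call among the 10 genes.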

Other observations

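WT replicate 1 also held the highest levels of some other basement membrane genes. Itgb4, an integrin chain of perineurial and Schwann cells, was at 212 CPM there and at 20.4 to 26.9 CPM in the other 5 libraries. The laminin-binding integrin chain Itga6 was at 169 CPM there and at 56.3 to 77.0 CPM elsewhere. Among the minor type IV collagen chains, Col4a3 was at 11.4 CPM there against 1.66 to 4.82 CPM, Col4a4 at 10.8 CPM against 1.92 to 7.22 CPM and Col4a6 at 5.69 CPM against 0.113 to 2.17 CPM. These genes were picked after their values were seen, and the source of this library's nerve and vessel transcripts was not tested.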
